A study of Gossypium hirsutum and Gossypium barbadense with 16 samples.

Results

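The 40 genes described here ran in opposite directions in the fiber cells of the cotton lines Gb3–79 and GhTM-1. They were chosen on the FPKM values (sequenced fragments corrected for transcript length and library size) of the 8 libraries of these lines at 2 days post anthesis (DPA). In Gb3–79, both fiber libraries had to lie above both epidermal libraries, with a fiber mean of at least 1.5 times the epidermal mean and over 5 FPKM. In GhTM-1, both fiber libraries had to lie below both epidermal libraries, with an epidermal mean of at least 1.5 times the fiber mean and over 5 FPKM. Of the 52514 genes of *Gossypium hirsutum* that the authors paired with an ortholog of *G. barbadense*, 40 met both demands. Taken by itself, the demand in Gb3–79 was met by 5.03% of the orthologs and that in GhTM-1 by 8.34%. Since these 8 libraries chose the members, their values are given as a description with no test.

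Epidermal and fiber cells were cut from ovules by laser-capture microdissection (LCM), a method that collects chosen cells from a tissue section under the microscope, and their polyA RNA was sequenced. The 16 libraries formed 8 groups of 2 replicates. The fiberless mutant GhMD17, a *G. hirsutum* line, gave epidermal cells at 2 DPA and at 0 DPA. The wild-type lines Gb3–79 (*G. barbadense*, Pima cotton) and GhTM-1 (*G. hirsutum*, Upland cotton) each gave fiber cells at 2 DPA and epidermal cells at 2 DPA and at 0 DPA. All plants grew in a greenhouse under natural light, and the labels name neither the plants behind a replicate nor whether replicates came from separate plants, so a p-value measures the spread between these libraries only.

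A cotton fiber is a single elongated cell that grows out of the outer epidermis of the ovule around the day of flowering, while the neighbouring epidermal cells stay short. MYB transcription factors such as GhMYB25 and GhMYB109 are known to act in early fiber cells. Both cultivated tetraploid species carry an A and a D set of chromosomes, so that most genes have a homoeolog in the other set. Neither the tables nor the reference used here attach a name or function to the 40 members, which are therefore given by their identifiers.

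The labels were checked with 7 MYB genes that the study had picked on these same libraries. Summed over 4 genes of the GhMYB25 and GhMYB109 clades, fiber cells had 413 and 432 FPKM in Gb3–79 against 173 and 159.7 FPKM in its epidermal cells at 2 DPA. In GhTM-1 fiber cells had 496 and 483 FPKM against 284 and 278 FPKM in the epidermal cells. All 4 markers were above 0 in every one of these libraries, so the epidermal samples at 2 DPA also held fiber marker RNA, and its sum was lower in Gb3–79 than in GhTM-1. GhMD17 had 25.1 and 31.2 FPKM of these markers at 2 DPA and 9.21 and 10.5 FPKM at 0 DPA, where *Gohir.1Z049716* was listed at 0 in 1 library. The 3 MYB16 homologs, markers of the epidermis under the fibers, summed to 9.78 and 8.21 FPKM in fiber cells against 31.1 and 43.4 FPKM in epidermal cells of Gb3–79, and to 9.57 and 11.5 FPKM against 42.1 and 52.1 FPKM in GhTM-1. Both marker sets thus ran in the same direction in both lines, unlike the members. Their part in the values below was not tested, and in such bulk samples fewer cells of a type and less RNA per cell cannot be told apart. Between 25689 and 29504 orthologs per library were over 1 FPKM, and no library was left out.

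**Figure D1:**
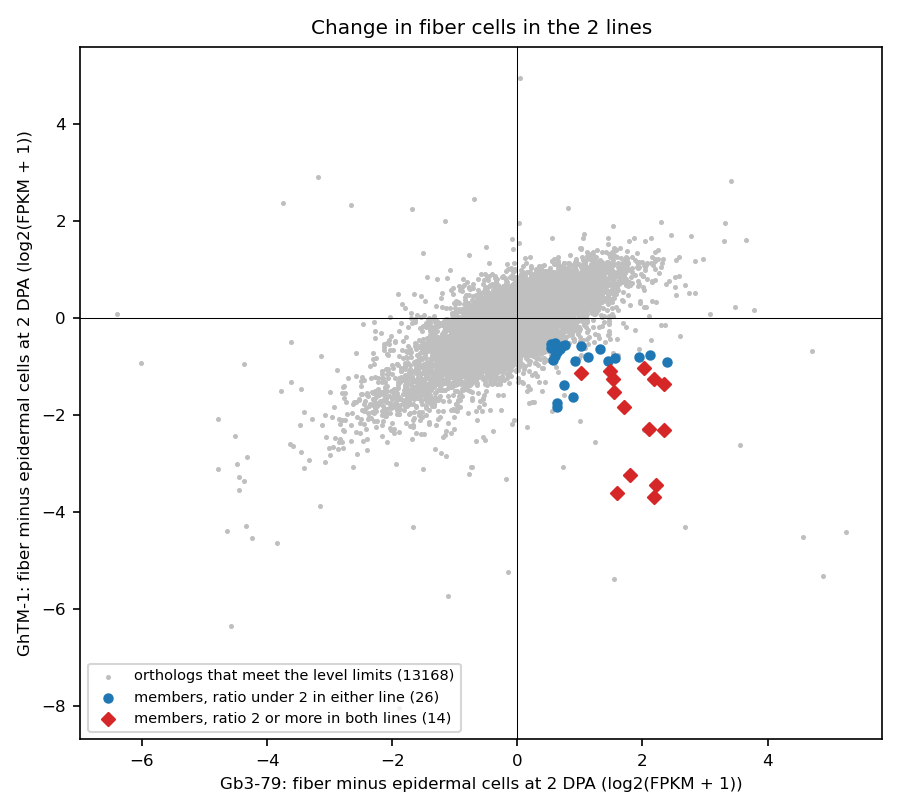
Fiber minus epidermal cells at 2 DPA on the log2(FPKM + 1) scale, Gb3–79 on the horizontal and GhTM-1 on the vertical axis, for the 13168 orthologs that met the level limits of 5 FPKM, with 14 members of ratio 2 or more in both lines as red diamonds and the other 26 in blue. The rule placed the members toward the lower right, where grey points are orthologs with overlapping libraries or a ratio under 1.5.

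Opposite changes were rare beside shared ones. Under the same limits, 1013 orthologs were higher and 2759 were lower in the fiber cells of both lines, and 36 showed the reverse of the members' pattern, higher in GhTM-1 fiber and lower in Gb3–79 fiber. At a ratio of at least 2 in both lines, 14 orthologs had the members' pattern and 7 the reverse. At a ratio of at least 3 these counts were 8 and 3, and at 4 they were 4 and 0. Just inside the limit, *Gohir.A01G111400* had a smaller ratio of 1.521 and *Gohir.D12G003100* one of 1.523. Just outside it, *Gohir.D06G190800* had 1.498 and *Gohir.A05G090600* had 1.496.

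The members were spread over 19 of the 26 chromosomes named in the identifiers, 17 on A and 23 on D chromosomes. The D share of 57.5% compares with 52.1% of all orthologs. Each member matched 1 gene of the *G. barbadense* table by its 6 Gb3–79 values, and none shared its *G. barbadense* gene with another ortholog. In 38 of the 39 pairs with a chromosome in both identifiers the chromosome was the same, a share of 96.6% over the whole table. *Gohir.A05G166700* was the exception, since its *G. barbadense* partner has an identifier of chromosome D05. *Gohir.D07G077800* was the member left out of these pairs, since the identifier of its *G. barbadense* partner names no chromosome. *Gohir.D10G144300* and *Gohir.D10G144400* have neighbouring identifiers and were both among the leading members. Only uniquely mapped reads were counted, and whether a member has a near-identical copy elsewhere in the genome was not examined here.

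Ranked by the smaller of its changes in both lines, *Gohir.D12G059800* came first. Its FPKM were 1458 and 999 in Gb3–79 fiber cells against 262 and 214 in Gb3–79 epidermal cells at 2 DPA. In GhTM-1 it had 10.3 and 11.7 FPKM in fiber cells against 56.95 and 58.99 FPKM in epidermal cells. The log2(FPKM + 1) difference between fiber and epidermal cells was 2.34 in Gb3–79 and -2.30 in GhTM-1. Outside the rule, GhMD17 had 153 and 135 FPKM at 2 DPA and 130.4 and 147 FPKM at 0 DPA. At 0 DPA Gb3–79 had 102 and 109.6 and GhTM-1 131 and 136 FPKM. The 8 epidermal libraries of 0 DPA and of GhMD17 thus lay between 102 and 153 FPKM, below both Gb3–79 fiber libraries and above both GhTM-1 fiber libraries.

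*Gohir.D10G144400* and its neighbour *Gohir.D10G144300* shared their highest and lowest groups. *Gohir.D10G144400* had 682 and 395 FPKM in Gb3–79 fiber cells against 137 and 90.2 in epidermal cells, and 3.89 and 2.7 in GhTM-1 fiber cells against 47.5 and 43.1 in epidermal cells. Its epidermal FPKM outside the rule were 129.8 and 103 in GhMD17 at 2 DPA, 85.3 and 88.2 in GhMD17 at 0 DPA, 42.9 and 60.6 in Gb3–79 at 0 DPA and 97.1 and 90.9 in GhTM-1 at 0 DPA. GhTM-1 fiber was the lowest and Gb3–79 fiber the highest group, without overlap with any other group. *Gohir.D10G144300* had 1290.0 and 897 FPKM in Gb3–79 fiber cells against 249.6 and 251 in epidermal cells, and 5.22 and 10.8 in GhTM-1 fiber cells against 36.98 and 44.9 in epidermal cells. It had 94.1 and 117 FPKM in GhMD17 at 2 DPA, 79.7 and 85.96 in GhMD17 at 0 DPA, 139 and 166 in Gb3–79 at 0 DPA and 70.5 and 118 in GhTM-1 at 0 DPA. The neighbours differed at 0 DPA, where Gb3–79 lay below GhTM-1 for *Gohir.D10G144400* and above it for *Gohir.D10G144300*, without overlap for either gene.

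*Gohir.A08G176400* had 818 and 476 FPKM in Gb3–79 fiber cells against 162 and 115 in epidermal cells, and 6.46 and 2.85 in GhTM-1 fiber cells against 68.8 and 67.3 in epidermal cells. Its fiber-to-epidermal difference of -3.69 in GhTM-1, on the log2(FPKM + 1) scale, was the largest among the members. GhMD17 had 175 and 192 FPKM at 2 DPA and 144 and 199 at 0 DPA, and at 0 DPA Gb3–79 had 49.6 and 87.8 and GhTM-1 139.9 and 133 FPKM. Its epidermal libraries outside the rule therefore stood below Gb3–79 fiber and above GhTM-1 fiber.

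*Gohir.D07G125100* had 1210.4 and 744 FPKM in Gb3–79 fiber cells against 347 and 212 in epidermal cells, and 10.3 and 7.63 in GhTM-1 fiber cells against 86.9 and 95.6 in epidermal cells. It had 276 and 227 FPKM in GhMD17 at 2 DPA, 191 and 209 in GhMD17 at 0 DPA, 129 and 129 in Gb3–79 at 0 DPA and 172 and 177 in GhTM-1 at 0 DPA. The 4 wild-type epidermal libraries of 0 DPA lay within the range of 129 to 177 FPKM, Gb3–79 below GhTM-1. *Gohir.D01G203300* ran at a lower level, with 43.2 and 24.4 FPKM in Gb3–79 fiber cells against 10.1 and 8.51 in epidermal cells, and 3.56 and 1.78 in GhTM-1 fiber cells against 10.4 and 13.1 in epidermal cells. GhMD17 had 33.7 and 29.1 FPKM of it at 2 DPA and 29.3 and 29.8 at 0 DPA, and at 0 DPA Gb3–79 had 8.21 and 9.86 and GhTM-1 26.8 and 32.1 FPKM. Unlike in the other leading members, its Gb3–79 fiber libraries overlapped those of GhMD17 and of GhTM-1 at 0 DPA.

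**Figure D2:**
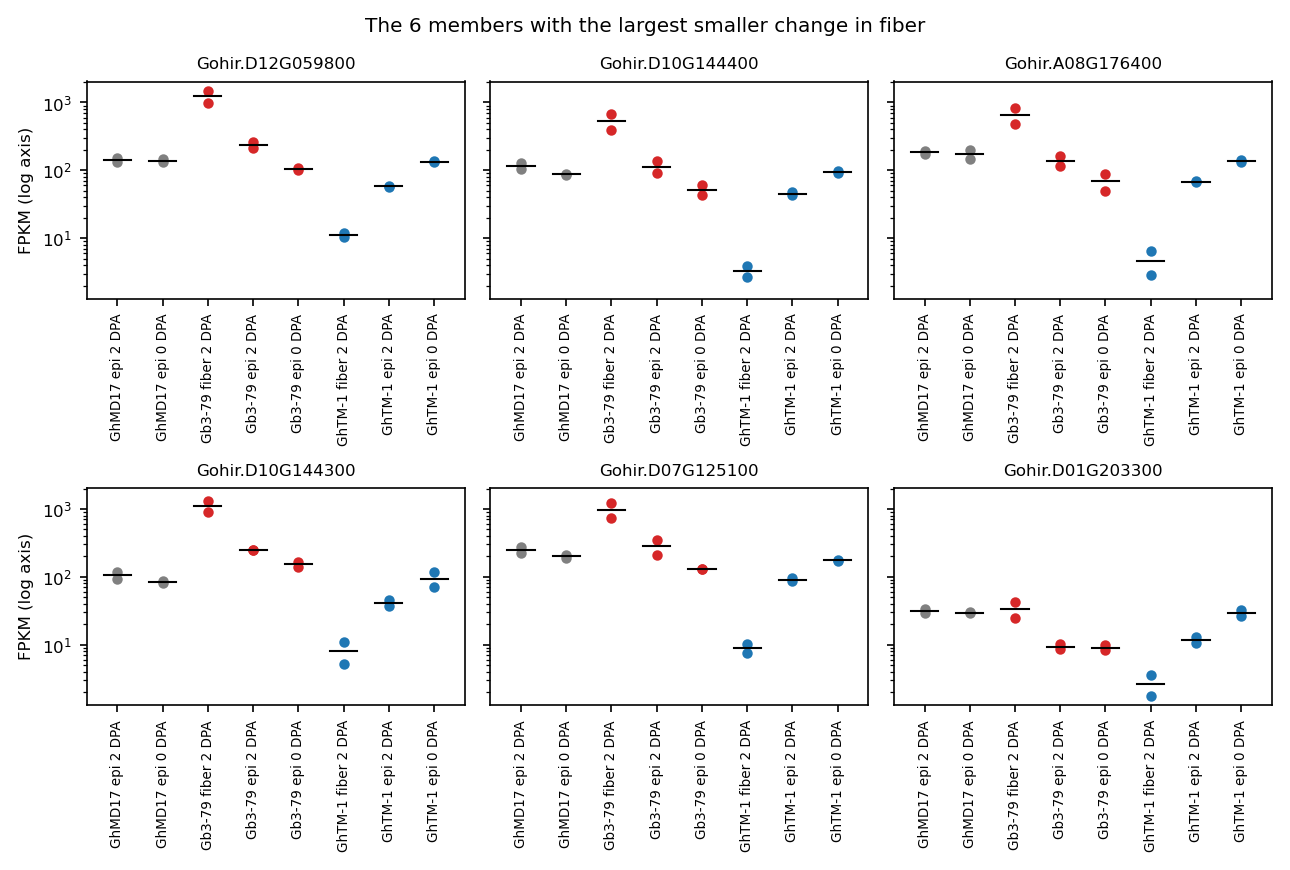
FPKM on a log axis of the 6 members with the largest smaller change, for each library (points) and group mean (bars), with GhMD17 in grey, Gb3–79 in red and GhTM-1 in blue. GhTM-1 fiber was the lowest group for all 6, and the Gb3–79 fiber mean was the highest group mean for all 6, reaching 1229 FPKM for Gohir.D12G059800.

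*Gohir.D02G089400* and *Gohir.D05G170300* were among the 4 members with the highest mean FPKM over all libraries, with *Gohir.D08G195100* and *Gohir.D03G098800*. *Gohir.D02G089400* had 815 and 591 FPKM in Gb3–79 fiber cells against 248 and 227 in epidermal cells, and 64.2 and 45.7 in GhTM-1 fiber cells against 195 and 126 in epidermal cells. It reached 490.5 and 469 FPKM in GhMD17 at 2 DPA and 257 and 354 at 0 DPA, against 99.3 and 106 in Gb3–79 and 223 and 244 in GhTM-1 at 0 DPA. GhMD17 at 2 DPA was above all epidermal libraries of the other groups for this gene. *Gohir.D05G170300* had 1075 and 785 FPKM in Gb3–79 fiber cells against 342 and 293 in epidermal cells, and 30.6 and 32.5 in GhTM-1 fiber cells against 69.3 and 85.01 in epidermal cells. At 0 DPA its FPKM were 166 and 184 in GhMD17, 229 and 264 in Gb3–79 and 127 and 135 in GhTM-1, and GhMD17 had 254 and 192 at 2 DPA. Here Gb3–79 was the highest line at 0 DPA, without overlap.

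*Gohir.D08G195100* had 1053 and 721 FPKM in Gb3–79 fiber cells against 318 and 263 in epidermal cells, and 7.38 and 5.42 in GhTM-1 fiber cells against 84.3 and 92.9 in epidermal cells. Its 6 libraries of 0 DPA ranged over 161 to 238 FPKM and overlapped between the 3 lines. *Gohir.D03G098800* varied most between replicates of these 4 genes, with 356 and 624 FPKM in Gb3–79 fiber cells against 66.4 and 222 in epidermal cells, and 289 and 211 in GhTM-1 fiber cells against 537 and 343 in epidermal cells. Its replicates of GhTM-1 epidermal cells at 0 DPA had 239 and 616 FPKM, a wider gap than the one between the means of its GhTM-1 cell types at 2 DPA.

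The 14 members with a ratio of at least 2 in both lines were the 6 leading ones, *Gohir.D02G089400*, *Gohir.D05G170300* and *Gohir.D08G195100*, together with *Gohir.A02G140100*, *Gohir.A07G073200*, *Gohir.A13G020400*, *Gohir.D07G157500* and *Gohir.D10G049400*. Their FPKM summed to 9121 and 6192 in Gb3–79 fiber cells against 2270 and 1870.0 in epidermal cells, and to 192 and 165 in GhTM-1 fiber cells against 746 and 748 in epidermal cells. They made up 1.39% and 0.937% of the summed FPKM of the Gb3–79 fiber libraries and 0.0306% and 0.0254% of the GhTM-1 fiber libraries. In the epidermal cells outside the rule the sums were 2043 and 1937 in GhMD17 at 2 DPA, 1413 and 1678 in GhMD17 at 0 DPA, 1072 and 1293 in Gb3–79 at 0 DPA and 1276 and 1441 in GhTM-1 at 0 DPA. At 0 DPA the sums ran from 1072 to 1678 over the 3 lines, with Gb3–79 below GhMD17 and overlapping GhTM-1. Such sums rest mostly on the members with the highest FPKM. Gene by gene at 0 DPA, Gb3–79 was below GhTM-1 without overlap in 9 of the 14 and above it in 4. These shares were 28.6% and 30.4% among the orthologs that met the level limits. The fiber libraries stood on either side of all these sums, which the choice itself favours.

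Set against all other libraries of the series, the Gb3–79 fiber libraries were the highest in 12 of the 14 and the GhTM-1 fiber libraries the lowest in 12, with both true of 11. *Gohir.D01G203300*, *Gohir.D07G157500* and *Gohir.D10G049400* were the exceptions. Among the orthologs that met the level limits, 7.18% had Gb3–79 fiber highest, 9.22% had GhTM-1 fiber lowest and 0.152% had both, and the choice itself raises these shares among the members. *Gohir.D07G157500* had 11.05 and 11.4 FPKM in Gb3–79 fiber cells against 8.04 and 0 in epidermal cells, and 19.999 and 9.79 in GhTM-1 fiber cells against 26.6 and 33.3 in epidermal cells. It was listed at 0 in 1 library each of GhMD17 at 0 DPA and Gb3–79 epidermal cells at 2 DPA, and its GhTM-1 fiber mean was above its Gb3–79 fiber mean. *Gohir.D10G049400* had 32.01 and 29.96 FPKM in Gb3–79 fiber cells against 13.3 and 16.6 in epidermal cells, and 3.35 and 7.001 in GhTM-1 fiber cells against 8.4 and 16.8 in epidermal cells. Its GhTM-1 fiber libraries overlapped those of GhTM-1 epidermal cells at 0 DPA, which had 4.41 and 9.26 FPKM. The replicates of Gb3–79 fiber differed in level for the 14 together: replicate 1 was above replicate 2 in 13 of 14, by a median of 1.45 times, against 50.7% of the 13168 orthologs that met the level limits. At 0 DPA the replicates differed the other way, with replicate 1 above replicate 2 in 1 of the 14 in Gb3–79, by a median ratio of 0.858, and in 2 of the 14 in GhTM-1, by a median ratio of 0.855, against 50.3% and 43.1% of those orthologs. In GhMD17 at 0 DPA it was above in 4 of the 14, against 50.8%.

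*Gohir.A02G140100* had 134 and 101 FPKM in Gb3–79 fiber cells against 23.9 and 20.2 in epidermal cells, and 1.92 and 2.68 in GhTM-1 fiber cells against 5.7 and 9.39 in epidermal cells. *Gohir.A07G073200* had 82.4 and 43.8 FPKM in Gb3–79 fiber cells against 10.7 and 14.4 in epidermal cells, and 4.99 and 2.31 in GhTM-1 fiber cells against 9.22 and 10.005 in epidermal cells. *Gohir.A13G020400* had 418 and 373 FPKM in Gb3–79 fiber cells against 138 and 145 in epidermal cells, and 19.4 and 21.8 in GhTM-1 fiber cells against 39.4 and 51.5 in epidermal cells. In all 3 the Gb3–79 fiber libraries were above every other library, and the GhTM-1 fiber libraries were below every other library.

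The other 26 members were smaller in change and mostly low in level. Gb3–79 fiber was above all other libraries in 7 of them and GhTM-1 fiber below all others in 6, and only *Gohir.A05G192500* showed both. Their median ratio was 1.75 for fiber over epidermal cells in Gb3–79 and 1.76 for epidermal over fiber cells in GhTM-1. Their median FPKM over all libraries was 8.71, against 154 for the 14. Several higher ones resembled the 14 in one line more than in the other. *Gohir.D05G195700* had 248 and 164 FPKM in Gb3–79 fiber cells against 47.1 and 30.3 in epidermal cells, a difference of 2.39 on the log2(FPKM + 1) scale, but 21.6 and 13.4 in GhTM-1 fiber cells against 34.3 and 30.9 in epidermal cells, a difference of -0.90. *Gohir.D12G116900* leaned the other way, with 10.97 and 11.3 FPKM in Gb3–79 fiber cells against 9.52 and 4.81 in epidermal cells, and 1.17 and 0.558 in GhTM-1 fiber cells against 5.22 and 5.91 in epidermal cells. *Gohir.D08G098100* had 93.7 and 59.8 FPKM in Gb3–79 fiber cells against 49.5 and 46.1 in epidermal cells, and 6.21 and 7.72 in GhTM-1 fiber cells against 27.7 and 23.9 in epidermal cells. These 3 genes were described after their values were seen.

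At the low end, *Gohir.D01G168000* had 5.44 and 5.88 FPKM in Gb3–79 fiber cells against 3.49 and 3.62 in epidermal cells, and 3.02 and 3.58 in GhTM-1 fiber cells against 5.35 and 5.22 in epidermal cells. *Gohir.A01G111400*, one of the members at the ratio limit, had 20.1 and 18.9 FPKM in Gb3–79 fiber cells against 11.8 and 10.5 in epidermal cells, and 5.98 and 8.28 in GhTM-1 fiber cells against 10.8 and 10.8 in epidermal cells. *Gohir.D12G003100*, the other, had 13.2 and 11.6 FPKM in Gb3–79 fiber cells against 11.2 and 5.11 in epidermal cells, and 4.65 and 5.48 in GhTM-1 fiber cells against 6.05 and 10.9 in epidermal cells. For such genes the gap between the cell types was narrow, and the epidermal replicates of *Gohir.D12G003100* differed more than the means of its cell types in either line.

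**Figure D3:**
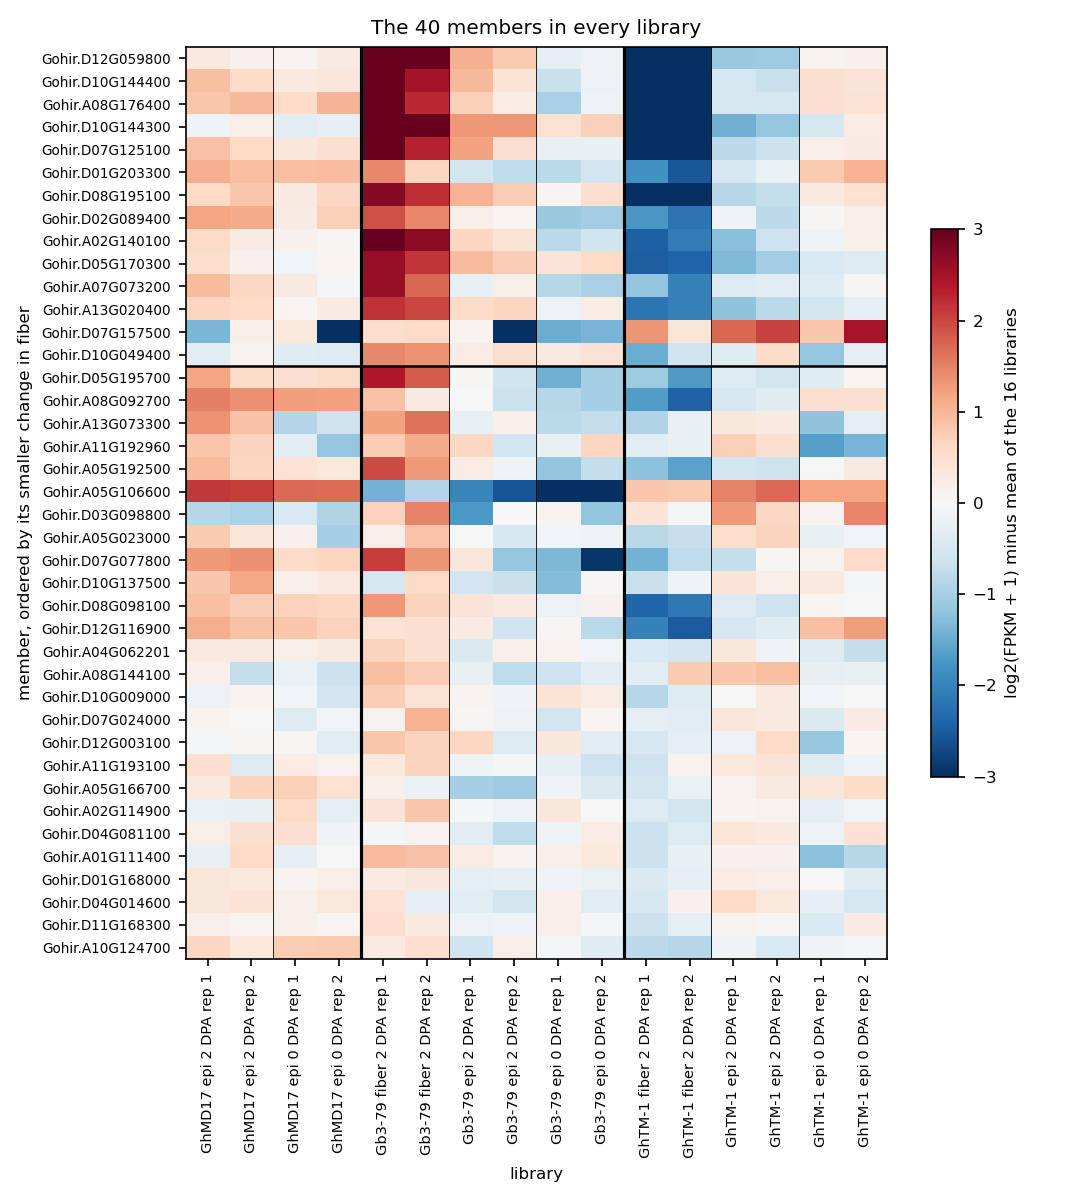
Each of the 40 members (rows, ordered by the smaller of their fiber changes) in each of the 16 libraries (columns), as log2(FPKM + 1) minus the member's mean over the libraries, with colours capped at 3 in either direction. The horizontal line sets the 14 members with a ratio of at least 2 in both lines above the other 26, in which differences were smaller.

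Whether the members differed between lines at 0 DPA was tested on the 8 libraries the choice did not use. At 0 DPA the top layer of wild-type ovules was cut as one sample, and the paper takes it to hold fiber cell initials. At 2 DPA the fibers were cut off before the epidermal cells were taken. The fiber markers summed to 240.3 and 268 FPKM in Gb3–79 and 347 and 442 FPKM in GhTM-1 at 0 DPA. In both lines this was more than in their epidermal cells at 2 DPA. The choice did use epidermal cells of both wild-type lines at 2 DPA, and how far levels at 0 DPA follow from it was not tested. Gb3–79 was compared with GhTM-1 in epidermal cells at 0 DPA on log2(FPKM + 1) with limma, and a gene was called at an unadjusted P under 0.01, a mean over 5 FPKM in the higher line and a ratio over 1.5. In Gb3–79, 2 members were higher and 11 lower, where 4.68% of the 41646 orthologs tested were higher and 3.56% lower. Among the 13168 orthologs that met the level limits these shares were 7.94% and 5.82%. An adjusted p under 0.05 in limma left 1 member higher and 8 lower, against 3.37% and 2.51% of all orthologs tested. The median difference of the members was −0.18, against 0.01 in the orthologs that met the level limits.

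*Gohir.A05G106600* showed the largest difference, with 0 and 1.11 FPKM in Gb3–79 against 49.8 and 49.6 FPKM in GhTM-1, a difference of -5.12 ± 0.32 (SE) on the log2(FPKM + 1) scale, with an adjusted p of 0.000494 (limma). Also at 2 DPA its Gb3–79 libraries were low, with 7.32 and 11.2 FPKM in fiber cells and 4.67 and 2.72 FPKM in epidermal cells. *Gohir.D07G077800* had 2.6 and 0.218 FPKM in Gb3–79 against 8.85 and 12.6 FPKM in GhTM-1, a difference of -2.47 ± 0.47 (SE) on the log2(FPKM + 1) scale, with an adjusted p of 0.0259 (limma), and the call was lost without GhTM-1 replicate 2. Its fiber cells at 2 DPA had 37.9 and 22.2 FPKM in Gb3–79, above both lines at 0 DPA. *Gohir.D01G203300*, with the 0 DPA values given above, was lower in Gb3–79, with a difference of -1.60 ± 0.16 (SE) on the log2(FPKM + 1) scale, with an adjusted p of 0.00259 (limma).

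The other 8 lower members had differences of −1.48 to −0.70. They included *Gohir.A08G176400*, *Gohir.D10G144400*, *Gohir.D02G089400* and *Gohir.A02G140100* of the 14. *Gohir.A08G092700* had 46.4 and 42.01 FPKM in Gb3–79 against 118 and 118 FPKM in GhTM-1, a difference of -1.40 ± 0.14 (SE) on the log2(FPKM + 1) scale, with an adjusted p of 0.00235 (limma). Of the 2 higher members, *Gohir.A01G111400* had 11.03 and 12.6 FPKM in Gb3–79 against 3.66 and 5.06 FPKM in GhTM-1, a difference of 1.27 ± 0.30 (SE) on the log2(FPKM + 1) scale, with an adjusted p of 0.0516 (limma). *Gohir.D05G170300* was higher by 0.91 ± 0.19 (SE) on the log2(FPKM + 1) scale, with an adjusted p of 0.0351 (limma). Both of these calls were lost when either GhTM-1 replicate or Gb3–79 replicate 2 was left out.

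The counts depended on single libraries. Without GhTM-1 replicate 2, 4 members were lower in Gb3–79, without Gb3–79 replicate 1 there were 6, and without GhMD17 replicate 2 of 0 DPA, which enters only the shared spread, there were 7. The count of 2 higher members became 0 without Gb3–79 replicate 2, 1 without GhTM-1 replicate 1 and 1 without GhMD17 replicate 2 of 0 DPA. Without either GhTM-1 replicate the members called higher were others than *Gohir.A01G111400* and *Gohir.D05G170300*. The reads of both lines were mapped to different genomes with different gene models, so that a difference between lines and one between references cannot be told apart.

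**Figure D4:**
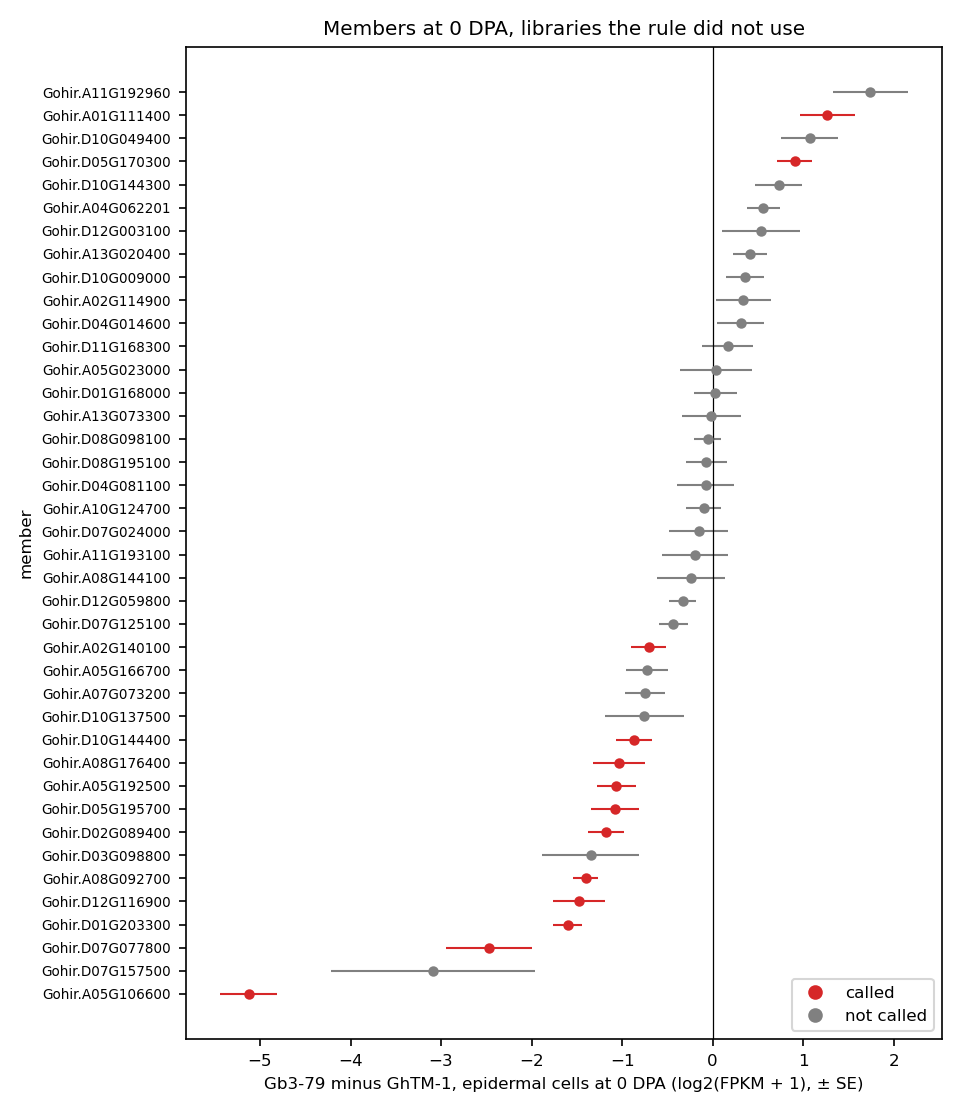
Gb3–79 minus GhTM-1 in epidermal cells at 0 DPA for each of the 40 members, on the log2(FPKM + 1) scale with its standard error (2 libraries a line, limma), sorted from lowest at the bottom to highest, with called members in red. The lowest was Gohir.A05G106600 at −5.12, and 2 called members lay above 0.

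The fiberless mutant was compared with both wild-type lines at 0 DPA. These comparisons share libraries with each other and with the one above. The marker sums moved with them: at 0 DPA the fiber markers summed to 9.21 and 10.5 FPKM in GhMD17, against 240.3 and 268 FPKM in Gb3–79 and 347 and 442 FPKM in GhTM-1. The epidermis markers summed to 66.01 and 59.9 FPKM in GhMD17, against 18.8 and 15.7 FPKM in Gb3–79 and 19.2 and 30.5 FPKM in GhTM-1. Their part in the counts that follow was not tested. Against GhTM-1, a line of the same species mapped to the same genome, 4 members were higher in GhMD17 and 0 lower, where 2.65% of all orthologs tested were higher and 3.62% lower (4.07% and 9.83% of those that met the level limits). At an unadjusted p under 0.05 with no limit on the fold, limma gave 8 members higher and 2 lower. The share of all orthologs at that limit was not counted. *Gohir.A10G124700* had 15.03 and 15.1 FPKM in GhMD17 against 7.61 and 7.998 FPKM in GhTM-1, a difference of 0.87 ± 0.19 (SE) on the log2(FPKM + 1) scale, with an adjusted p of 0.0684 (limma). *Gohir.A08G092700* had 205 and 199.7 FPKM in GhMD17 against 118 and 118 FPKM in GhTM-1, a difference of 0.77 ± 0.14 (SE) on the log2(FPKM + 1) scale, with an adjusted p of 0.0389 (limma), the only one with an adjusted p under 0.05, which 0.876% of all orthologs tested reached as higher in GhMD17. *Gohir.A04G062201* and *Gohir.D08G098100* were the others, and none of the 14 was called. Without either GhMD17 replicate of 0 DPA 1 member was called higher, without GhTM-1 replicate 1 there were 2, and without GhTM-1 replicate 2 there was 1.

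Against Gb3–79, 16 members were higher in GhMD17 and 0 lower, where 5.43% of all orthologs tested were higher and 6.15% lower (6.98% and 13.1% of those that met the level limits). Of the 16, 14 had an adjusted p under 0.05, against 4.66% of all orthologs tested. At an unadjusted p under 0.05 in limma with no limit on the fold, 17 members were higher and 3 lower. No share over all orthologs was counted at that limit. *Gohir.A05G106600* had 71.3 and 69.9 FPKM in GhMD17 against 0 and 1.11 FPKM in Gb3–79, a difference of 5.62 ± 0.32 (SE) on the log2(FPKM + 1) scale, with an adjusted p of 0.000214 (limma). *Gohir.D07G077800* had 12.8 and 13.4 FPKM in GhMD17 against 2.6 and 0.218 FPKM in Gb3–79, a difference of 2.75 ± 0.47 (SE) on the log2(FPKM + 1) scale, with an adjusted p of 0.0124 (limma). Of the 14 members with the larger ratios, 7 were higher in GhMD17, among them *Gohir.D02G089400* and *Gohir.A08G176400*. The count of 16 became 7 without GhMD17 replicate 2, 8 without GhMD17 replicate 1 and 9 without Gb3–79 replicate 1.

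In GhMD17 epidermal cells, 2 members were higher at 2 DPA than at 0 DPA and 0 lower, where 1.08% of all orthologs tested were higher and 0.622% lower (1.81% and 0.843% of those that met the level limits). Of the 2 higher ones, 0 had an adjusted p under 0.05, against 0.106% of all orthologs tested. With an unadjusted p under 0.05 in limma and no limit on the fold, 6 members were higher and 0 lower. For that limit the share of all orthologs was not counted. *Gohir.A13G073300* had 36.7 and 26.1 FPKM at 2 DPA against 7.07 and 8.66 FPKM at 0 DPA, a difference of 1.86 ± 0.32 (SE) on the log2(FPKM + 1) scale, with an adjusted p of 0.135 (limma). *Gohir.A11G192960* had 6.95 and 6.16 FPKM at 2 DPA against 2.57 and 1.01 FPKM at 0 DPA, a difference of 1.49 ± 0.41 (SE) on the log2(FPKM + 1) scale, with an adjusted p of 0.348 (limma). The median difference of the members was 0.28, against 0.00 in the orthologs that met the level limits. Both libraries of 2 DPA were above both of 0 DPA in 23 of the 40 and below in 1, against 20.5% and 18.8% of those orthologs. The 40 members were not treated as separate observations. The count of 2 became 0 without replicate 1 of 2 DPA, 1 without replicate 2 of 2 DPA, 3 without replicate 1 of 0 DPA, and 1 without either GhTM-1 library.

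Epidermal cells of the wild-type lines were set beside these values without a test, because their libraries of 2 DPA belong to the choice. For that choice the epidermal cells at 2 DPA had to lie above the fiber cells in GhTM-1 and below them in Gb3–79. In these lines fibers were cut off at 2 DPA only, so stage and the cells collected cannot be told apart. The choice compared cell types within each line and not one line with the other, but it bears on the epidermal levels of both. Both epidermal libraries of Gb3–79 at 2 DPA were above both of GhTM-1 in 11 of the 14 and below in 2. In the other 26 they were above in 2 and below in 14, against 30.7% and 22.4% of the orthologs that met the level limits. Of the 14, both libraries of 2 DPA were above both of 0 DPA in 9 in GhMD17, 11 in Gb3–79 and 0 in GhTM-1. They were below in 0 in GhMD17, 0 in Gb3–79 and 11 in GhTM-1. For *Gohir.D12G059800* the change between 0 and 2 DPA, on the log2(FPKM + 1) scale, was 0.05 in GhMD17, 1.15 in Gb3–79 and -1.19 in GhTM-1. *Gohir.D10G049400* and *Gohir.D07G157500* overlapped between the stages in both wild-type lines, *Gohir.D01G203300* in Gb3–79 and *Gohir.A07G073200* in GhTM-1. Of the 26 others, both libraries of 2 DPA were above both of 0 DPA in 14 in GhMD17, 8 in Gb3–79 and 13 in GhTM-1, and below in 1 in GhMD17, 7 in Gb3–79 and 7 in GhTM-1. Of the 13168 orthologs that met the level limits, 20.5% were above and 18.8% below in GhMD17, 22.6% above and 18.4% below in Gb3–79, and 20.8% above and 25.1% below in GhTM-1.

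**Figure D5:**
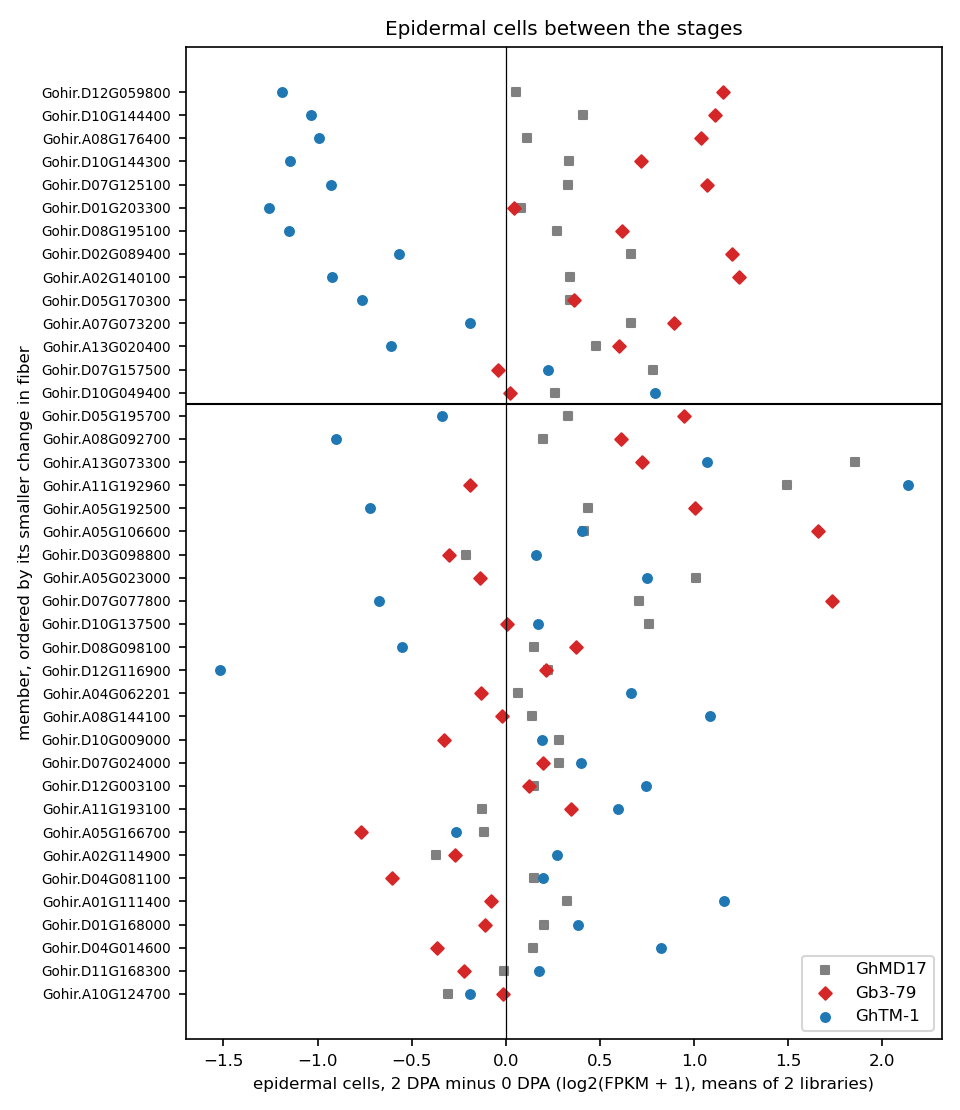
Epidermal cells at 2 DPA minus 0 DPA for each of the 40 members (rows) on the log2(FPKM + 1) scale, from means of 2 libraries, in GhMD17 (grey squares), Gb3–79 (red diamonds) and GhTM-1 (blue circles). In the wild-type lines fibers were cut off first at 2 DPA but not at 0 DPA. Above the horizontal line, among the 14 members with the larger ratios, Gb3–79 lay above 0 and GhTM-1 below 0 except for Gohir.D10G049400 and Gohir.D07G157500, with Gohir.D12G059800 at 1.15 in Gb3–79 and −1.19 in GhTM-1.

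At 2 DPA, GhMD17 epidermal cells lay between the fiber cells of the wild-type lines for most of the 14. Both GhMD17 libraries were below both Gb3–79 fiber libraries in 13 of the 14 and above both GhTM-1 fiber libraries in 13 of the 14. *Gohir.D07G157500* was lower in GhMD17 than in GhTM-1 fiber, and *Gohir.D01G203300* overlapped with Gb3–79 fiber. Over all 40, GhMD17 was below Gb3–79 fiber in 24 and above it in 6, and above GhTM-1 fiber in 36 and below it in 2. The shares among the orthologs that met the level limits were 36.6% below and 34.3% above Gb3–79 fiber, and 38.0% above and 34.5% below GhTM-1 fiber. These values share the libraries of the choice and were not tested.

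None of the 40 members was among the 20 *ARF* (auxin response factor) or the 20 *MYB* genes printed in the study's gene trees. The study drew them from its genes with a change in fiber cells of these libraries. Its *MYB* tree also marks some genes known from fibers that its experiment did not detect, and the counts below do not separate them. At an unadjusted p under 0.05 in limma with no limit on the fold, 13 *ARF* genes were higher and 0 lower in GhMD17 than in GhTM-1 at 0 DPA. Of the *ARF* genes called, 6 were higher and 0 lower in GhMD17 than in GhTM-1. Against Gb3–79, 10 were called higher and 1 lower in GhMD17. Over all orthologs tested, 2.65% were higher and 3.62% lower than in GhTM-1, and 5.43% were higher and 6.15% lower than in Gb3–79. Of the *MYB* genes, 3 were higher and 5 lower in GhMD17 than in GhTM-1, and 6 were higher and 6 lower in GhMD17 than in Gb3–79. Between Gb3–79 and GhTM-1 at 0 DPA, 1 *MYB* gene was higher and 1 lower in Gb3–79, where 4.68% of all orthologs tested were higher and 3.56% lower. Of the *ARF* genes 0 were higher and 1 lower in that comparison. An unadjusted p under 0.05 in limma with no limit on the fold gave 2 higher and 2 lower. In GhMD17 2 *MYB* genes and 0 *ARF* genes were higher at 2 DPA than at 0 DPA, and 0 of either were lower, beside 1.08% and 0.622% of all orthologs tested. There, an unadjusted p under 0.05 in limma with no limit on the fold gave 1 *ARF* gene higher and 2 lower. For the *MYB* genes it gave 3 higher and 1 lower. The share of all orthologs at that limit was not counted in any comparison.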

How the data were processed

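LCM samples of GhMD17, Gb3–79 and GhTM-1 were sequenced in 8 groups of 2 libraries. Per the study's methods, the authors mapped GhMD17 and GhTM-1 reads to a *G. hirsutum* genome and Gb3–79 reads to a *G. barbadense* genome (Tophat 2.1.1), kept uniquely mapped reads and computed the deposited FPKM values with Cufflinks 2.2.1. The submitters' processing notes also name SAMtools 1.5. Read depth cannot be seen in FPKM, and having 2 libraries a group limits precision as well.

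The values were used as deposited. Tests used log2(FPKM + 1), a pseudocount of 1, in limma 3.58.1 (R 4.3.3), with group means and eBayes with a trend, on the 8 libraries that did not choose the members and the 41646 orthologs with an FPKM over 0 in at least 1 of them. Contrasts were two-sided, and p-values were adjusted over all orthologs tested (Benjamini-Hochberg). The procedure was tested on simulated data for GhMD17 at 2 DPA against 0 DPA, with changes put into genes with a mean over 5 FPKM. It called 92 of 100 genes changed 4-fold and 63 of 100 changed 2-fold in the right direction. A member not called can thus still differ. It also called 193 of the 41446 unchanged genes, which were of any level, so their share cannot be set beside the others. Orthologs said to meet the level limits are the 13168 with a mean over 5 FPKM in GhTM-1 epidermal and in Gb3–79 fiber cells at 2 DPA. Alternatives were other ratios and levels, a pseudocount of 0.1, a filter on low values, adjusted p, other sets of libraries, rescaled libraries, the replicate number as a block and leaving out each replicate.

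Members were named by rule: the 6 with the largest smaller change, the 4 with the highest mean FPKM, those with the largest called differences in each comparison (up to 3 in each direction for Gb3–79 against GhTM-1 and up to 2 for the others) and 2 genes on either side of the ratio limit. Other members named were picked after their values were seen. The members and lists were chosen with earlier results of these data known. Python 3.11.15 and matplotlib 3.10.9 made the figures.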

Additional observations from a re-analysis of the deposited data

Results flagged for a closer look

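In 19 members, 10 of them among the 14 with a ratio of at least 2 in both lines, both epidermal libraries of Gb3–79 moved one way between 0 and 2 DPA and both of GhTM-1 the other way. The change in Gb3–79 minus that in GhTM-1, on the log2(FPKM + 1) scale, was 2.34 for *Gohir.D12G059800*, 2.15 for *Gohir.D10G144400*, 2.03 for *Gohir.A08G176400*, 1.86 for *Gohir.D10G144300*, 2.00 for *Gohir.D07G125100*, 1.77 for *Gohir.D08G195100*, 1.77 for *Gohir.D02G089400* and 2.17 for *Gohir.A02G140100*. It was 1.12 for *Gohir.D05G170300*, 1.21 for *Gohir.A13G020400*, 1.28 for *Gohir.D05G195700*, 1.51 for *Gohir.A08G092700*, 1.73 for *Gohir.A05G192500*, 2.40 for *Gohir.D07G077800* and 0.92 for *Gohir.D08G098100*. In the remaining 4 members the change was lower in Gb3–79, with -0.52 for *Gohir.D10G009000*, -0.54 for *Gohir.A02G114900*, -0.50 for *Gohir.D01G168000* and -1.19 for *Gohir.D04G014600*. Both lines' libraries of 2 DPA took part in choosing the members, and the difference was not tested. Fibers were cut off first at 2 DPA only, so stage and the cells collected cannot be told apart. The share of all orthologs with such opposite moves was not counted, so 19 cannot be called many or few.

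In 12 members, 7 of them among the 14, both GhMD17 libraries were higher at 2 DPA and both GhTM-1 libraries were lower. The change in GhMD17 minus that in GhTM-1 was 1.45 for *Gohir.D10G144400*, 1.48 for *Gohir.D10G144300*, 1.26 for *Gohir.D07G125100*, 1.23 for *Gohir.D02G089400*, 1.27 for *Gohir.A02G140100* and 1.10 for *Gohir.D05G170300*. It was 1.09 for *Gohir.A13G020400*, 1.10 for *Gohir.A08G092700*, 1.16 for *Gohir.A05G192500*, 1.38 for *Gohir.D07G077800*, 0.70 for *Gohir.D08G098100* and 1.74 for *Gohir.D12G116900*. Between GhMD17 and Gb3–79 this held for 2 members, with a change in GhMD17 minus that in Gb3–79 of 0.31 for *Gohir.D01G168000* and 0.51 for *Gohir.D04G014600*. These differences were not tested either, and no share over all orthologs was counted beside these numbers of members. With 2 replicates a group, no single library was examined as an outlier.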

How the results depend on the processing

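The number of members found by the rule moved with its limits. It was 14 at a ratio of 2, 113 at a ratio limit below 1.5, 131 at a mean over 1 FPKM and 21 at a mean over 10 FPKM. Rescaling the libraries gave 48, and rescaling over the orthologs that met the level limits, an alternative chosen after seeing the data, gave 43, of which 37 were among the 40. Leaving out 1 replicate gave 47 to 89 members, and these held 30 to 38 of the 40, fewest without GhTM-1 fiber replicate 1. Fewer libraries then had to be separate, and the means behind the ratio and level limits changed too. The highest count came without Gb3–79 epidermal replicate 1 of 2 DPA. No paired analysis was possible for this count because it comes from no test.

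Members higher in Gb3–79 than in GhTM-1 numbered 2, and 1 at an adjusted p under 0.05 and 0 to 2 without 1 replicate. Those lower numbered 11, and 4 to 10 without 1 replicate. Members higher in GhMD17 than in GhTM-1 numbered 4, and 1 at an adjusted p under 0.05 and 1 to 5 without 1 replicate. Those lower numbered 0, and 0 to 1 without 1 replicate. Members higher in GhMD17 than in Gb3–79 numbered 16, and 7 to 14 without 1 replicate. Those lower numbered 0, and 1 when genes had to have a mean over 1 FPKM, 1 when only the 4 libraries compared were fitted and 0 to 1 without 1 replicate. Members higher at 2 DPA in GhMD17 numbered 2, and 0 at an adjusted p under 0.05, 1 with a pseudocount of 0.1 and 0 to 3 without 1 replicate. With a replicate left out, the lone library of a group was assumed to vary like the other groups. The causes of these shifts were not tested.

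With the replicate number as a block, 4 members were higher in Gb3–79 than in GhTM-1, 1 was lower in GhMD17 than in Gb3–79 and 1 was higher at 2 DPA in GhMD17, and the other counts stayed within 1.5 times. The labels do not say that a number marks a shared plant or day, and the deviations of same-numbered libraries correlated by −0.107 to 0.169 between groups across orthologs. Of 176 alternative values of the 11 tested differences of single members, 148 kept direction and call, 28 kept the direction and lost the call, and 0 reversed. Rescaling moved the median of all orthologs by less than 0.1 in every comparison. Because the files hold FPKM and not counts, the counting error of a member is unknown, which bears most on those near 5 FPKM.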
